A study of Arabidopsis thaliana with 208 samples.

Results

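The NLP (NIN-LIKE PROTEIN) genes are a family of 9 plant transcription factors in Arabidopsis thaliana, and their transcript levels were followed in roots grown on low or high nitrate. The members were taken by gene identifier, NLP1 to NLP9, and make up 9 of the 33323 nuclear loci in the count tables. All 9 passed the low-count filter, NLP9 only through its libraries at 1 mM, and the RWP-RK motif that gives the family its DNA-binding domain was found in the annotated protein of 9 of 9.

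NLP proteins carry the first layer of the transcriptional response to nitrate. They bind short nitrate-responsive elements in promoters and turn on genes of nitrate uptake and assimilation, together with repressors that later turn part of the response off. In Arabidopsis NLP7 is held in the nucleus when nitrate is supplied, is phosphorylated by calcium-dependent kinases and can itself bind nitrate. The family is therefore best known for control at the protein level, and the data here measure its transcripts.

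The roots came from wild type Col and from 12 T-DNA insertion lines. Of these, 8 are SALK lines (SALK_146141, SALK_100002, SALK_094437C, SALK_085964C, SALK_070847C, SALK_035980, SALK_015182 and SALK_012253), 3 are GABI lines (GABI_868_E02, GABI_699B09 and GABI_513E07) and 1 is SAIL_1207_H04. The labels name the lines and not the genes they disrupt, so no targeted gene was checked. Each line was grown on 1 mM and on 10 mM KNO3 and harvested at 9 days, with 4 replicates of each line and concentration, each a pool of 2 plates. All media also held sucrose and 10 mM KCl, so potassium rose together with nitrate and the effects of the ions cannot be told apart. Libraries were made by a 3′ tag method (BRAD-seq), which counts reads near the end of each transcript, and each was read in 2 sequencing runs.

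The 52 libraries at each concentration, their runs added up, held 3981966 to 13695037 counts in nuclear genes, with a median of 8330750, and 19664 genes passed the filter. Library titles also carry an str number, with 13 values whose meaning the labels do not give, and only 3 of these hold both concentrations, for 24 libraries. The names inside the files of one library pair, the 10 mM replicate 3 of SALK_085964C and of SALK_035980, are exchanged relative to the labels, and the labels were followed. All 9 root markers were detected. By edgeR's quasi-likelihood test (adjusted p under 0.05) 7 were higher and 2 lower at 10 mM, beside 34.1% and 30.4% of all genes. The 3 seed markers had a summed level with a median of 0, and at most 2.51 CPM (counts scaled to a common library size) at 1 mM and 9.54 CPM at 10 mM. The 8 markers of photosynthetic tissue summed to 12.7 to 63.2 CPM at 1 mM and 33.4 to 148 CPM at 10 mM, and none was at 0. By the same test 8 of 8 were higher at 10 mM, beside 34.1% of all genes. Their part in the NLP results was not tested. In whole roots, fewer cells of a type and less RNA per cell cannot be told apart.

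The 9 genes lie on 4 of the 5 chromosomes, and most fall into sister pairs. Coordinates are those of the TAIR10.1 annotation. Exon numbers are those of the first annotated transcript and residues those of the longest protein, which may come from different transcripts. NLP1 (AT2G17150) lies on the minus strand at chr2:7466687-7471586, has 4 exons and encodes 909 residues. Its sister NLP2 (AT4G35270) lies on the minus strand at chr4:16777264-16782054, has 5 exons and encodes 963 residues, and the aligned proteins are 75.1% identical. NLP4 (AT1G20640, chr1:7154410-7158287, plus strand, 6 exons, 844 residues) and NLP5 (AT1G76350, chr1:28639453-28643086, plus strand, 4 exons, 808 residues) are the closest pair, at 78.6% identity. The pair NLP6 (AT1G64530, chr1:23959627-23963083, plus strand, 7 exons, 841 residues) and NLP7 (AT4G24020, chr4:12479528-12484049, plus strand, 6 exons, 959 residues) is the most diverged, at 63.3%. Identity is 73.1% between NLP8 (AT2G43500, chr2:18061716-18066708, plus strand, 8 exons, 947 residues) and NLP9 (AT3G59580, chr3:22009008-22012804, plus strand, 6 exons, 894 residues). NLP3 (AT4G38340, chr4:17954710-17958063, plus strand, 3 exons, 767 residues) has no sister, and its identity to any other member is at most 45.5%. The annotated start of NLP3 and the annotated end of NLP5 are partial.

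Few stretches of the transcripts were shared between members or with other genes. The longest run of identical bases between any 2 members' transcripts was 40, between NLP1 and NLP2. Of the 471 words of 30 bases in the last 500 bases of each transcript, none occurred elsewhere in the nuclear genome for 7 members, and 1 did for NLP8 and for NLP9. A second limit touches 3 members, whose annotated 3′ ends overlap an annotated neighbour. NLP4 shares 462 bases with AT1G20650, NLP1 shares 212 with AT2G17140 and NLP5 shares 49 with AT1G76360. Whether the authors counted by strand is not given in the sources used here, so these 3 genes are uncertain to that extent, and the neighbours' values are given beside the results they touch.

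The 250 bases upstream of the annotated start of 5 members are shown, since these are the 3 genes that fell furthest at 10 mM and a sister pair whose responses differed. Capitals mark GAATC or its reverse complement GATTC, the letters bound by the nitrate-induced NIGT1/HRS1 repressors, and CTT followed after any 10 bases by AAG, the spaced core of the nitrate-responsive element that NLP proteins bind. NLP9 is chr3:22008758-22009007, NLP3 is chr4:17954460-17954709 and NLP8 is chr2:18061466-18061715, all on the plus strand of TAIR10.1 and written 5′ to 3′.
NLP9: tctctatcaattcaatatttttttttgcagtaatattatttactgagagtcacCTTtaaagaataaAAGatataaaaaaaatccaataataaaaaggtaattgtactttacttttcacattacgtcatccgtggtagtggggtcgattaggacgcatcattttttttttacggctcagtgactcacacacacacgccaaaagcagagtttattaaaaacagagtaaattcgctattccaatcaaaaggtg
NLP3: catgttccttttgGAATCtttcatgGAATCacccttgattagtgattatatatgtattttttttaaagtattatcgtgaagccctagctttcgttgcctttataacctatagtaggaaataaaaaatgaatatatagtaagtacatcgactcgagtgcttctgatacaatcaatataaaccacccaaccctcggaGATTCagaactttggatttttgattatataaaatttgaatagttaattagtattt
NLP8: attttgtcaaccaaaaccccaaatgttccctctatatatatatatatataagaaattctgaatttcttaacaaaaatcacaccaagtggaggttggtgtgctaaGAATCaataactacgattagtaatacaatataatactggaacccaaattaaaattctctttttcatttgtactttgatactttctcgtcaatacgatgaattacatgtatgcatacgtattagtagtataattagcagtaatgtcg
NLP9 was the only member of 9 with the spaced core in this window, which 8.02% of 27443 promoters held. In the 1000 bases upstream NLP3 and NLP9 held it, as did 30.5% of promoters. GAATC on either strand was present in 6 of 9 members and in 38.8% of promoters. NLP2 and NLP3 each carried 3 copies, NLP7 carried 2, and NLP5, NLP6 and NLP8 carried 1 each. As the annotated start of NLP3 is partial, its window may lie partly within the gene. The longer palindrome GAATATTC was in the 250-base window of no member and of 0.86% of promoters. All motifs were searched on both strands, and a match is a stretch of letters, with no binding measured.

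The promoters of NLP1 and NLP2 share short runs. Here capitals mark runs of at least 8 bases found in both sequences; NLP1 is chr2:7471587-7471836 and NLP2 is chr4:16782055-16782304, each read from the minus strand of TAIR10.1.
NLP1: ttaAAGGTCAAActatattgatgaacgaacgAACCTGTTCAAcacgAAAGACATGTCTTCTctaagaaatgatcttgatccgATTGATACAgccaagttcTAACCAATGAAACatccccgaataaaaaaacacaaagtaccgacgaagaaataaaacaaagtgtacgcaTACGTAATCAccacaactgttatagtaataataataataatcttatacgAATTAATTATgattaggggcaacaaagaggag
NLP2: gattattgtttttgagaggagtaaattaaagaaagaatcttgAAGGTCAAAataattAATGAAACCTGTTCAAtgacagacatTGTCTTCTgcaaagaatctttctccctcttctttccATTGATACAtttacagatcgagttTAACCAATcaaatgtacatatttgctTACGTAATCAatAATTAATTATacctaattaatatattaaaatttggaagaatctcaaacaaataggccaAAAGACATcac
The longest run, aacctgttcaa, has 11 bases and occurred in 6 of 27443 promoters, 0.0219%. It starts 219 bases before NLP1 and 188 before NLP2. Shared runs covered 77 bases of the NLP1 window and 78 of that of NLP2. Between NLP4 and NLP5 they covered 65 bases of each window, and between NLP2 and NLP6, which are not sisters, 60 and 59. The longest runs between NLP3 and NLP5 (12 bases) and between NLP4 and NLP5 (11 bases) were strings of mostly A or T, found in 0.237% and 4.96% of promoters.

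Seen over all 13 lines, 8 NLP genes were lower on 10 mM than on 1 mM KNO3 and 1, NLP6, was slightly higher. Without NLP9, which was close to 0 at 10 mM, the falls ran from 1.18-fold in NLP1 to about 13-fold in NLP3. Since NLP9 passed the filter only through the group where it is high, it is left out of the counts of calls. By edgeR's quasi-likelihood test with Benjamini-Hochberg adjustment over all genes, the other 8 members passed the adjusted threshold of 0.05, 7 lower and 1 higher, but so did 64.5% of all genes tested, 30.4% being lower and 34.1% higher. The size of the falls says more than the count. A fall of at least 2-fold was called in 4 of these 8 members and in 4.2% of all genes, and a fall of at least 4-fold in 2 of 8 and in 1.58%. The median log2 change of the 8 was -0.88, and that of all genes tested was 0.02.

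**Figure D1:**
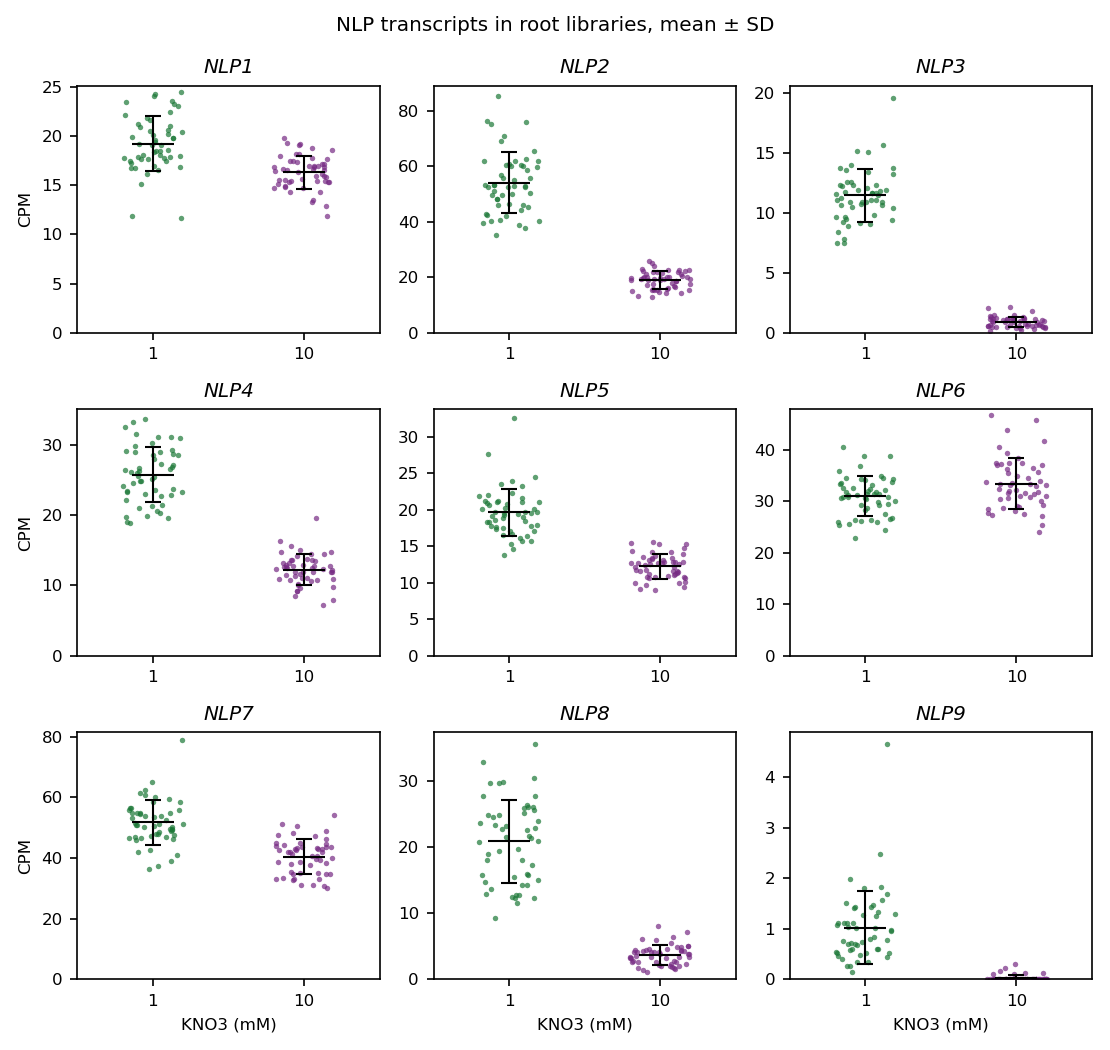
Level of each NLP gene in CPM, with 1 point per library (52 at 1 mM and 52 at 10 mM KNO3) and a bar for the mean ± SD; each panel has its own axis from 0. NLP2, NLP3 and NLP8 do not overlap, with medians of 53.0 against 19.3, 11.4 against 0.886 and 21.5 against 3.59 CPM, NLP9 has a median of 0.891 against 0 CPM, and the points of the other genes overlap.

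NLP7, the main activator of the primary nitrate response, was modestly lower at 10 mM over all lines. Its mean was lower in 13 of 13 lines, and Col had the largest fall, with a log2 change of -0.74. NLP6, a close relative of NLP7 that also binds the factor TCP20, changed little. At 1 mM the level of NLP7 had a lowest value of 36.4, a median of 51.1 and a highest value of 79.0 CPM, and at 10 mM these were 29.99, 41.6 and 54.0 CPM. The ranges overlap, and 15 of the 52 libraries at 10 mM lay below every library at 1 mM. The log2 change of NLP7 was -0.35 ± 0.04 (SE), 1.28-fold lower, with an adjusted p of 3.893e-13 by edgeR's quasi-likelihood test. NLP6 spanned 22.8 to 40.6 CPM at 1 mM, with a median of 31.2, and 24.0 to 46.7 at 10 mM, with a median of 33.0. These ranges cover each other almost entirely. NLP6 was 1.08-fold higher at 10 mM, with a log2 change of 0.11 ± 0.04 and an adjusted p of 0.009363 in the same fit. The NLP6 call was lost without replicate 2 (0.08, adjusted p = 0.1149), replicate 3 (0.06, 0.2247) or replicate 4 (0.10, 0.0621), with run 1 alone (0.10, 0.171), and within the str numbers that hold both concentrations (0.18, 0.07056), while its direction held under all 16 alternatives.

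NLP1 and NLP2, the sisters with the shared promoter runs printed above, fell by unequal amounts. NLP2, which acts beside NLP7 in the nitrate response, spanned 35.1 to 85.2 CPM at 1 mM with a median of 53.0. At 10 mM it spanned 12.8 to 25.8 CPM with a median of 19.3. No library at 10 mM reached the lowest library at 1 mM, a separation shown by 1.04% of all genes tested. The log2 change of NLP2 was -1.50 ± 0.05, 2.83-fold lower (edgeR adjusted p = 7.872e-47). NLP1 spanned 11.7 to 24.5 CPM at 1 mM, with a median of 19.1, and 11.8 to 19.9 at 10 mM, with a median of 16.5. The ranges overlap, and 20 of the 52 libraries at 1 mM lay above every library at 10 mM. NLP1 fell by 0.24 ± 0.04 on the log2 scale (edgeR adjusted p = 1.405e-08), and its value within the str numbers that hold both concentrations, -0.19 ± 0.10, did not pass (adjusted p = 0.1552). The neighbour that overlaps NLP1, AT2G17140, was at 1.80 CPM at 1 mM and 1.64 CPM at 10 mM and was not called.

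NLP4 and NLP5, the closest pair by protein, were both lower at 10 mM and NLP4 by more. NLP4 had a lowest value of 18.9, a median of 25.8 and a highest value of 33.7 CPM at 1 mM, against 7.20, 12.4 and 19.6 CPM at 10 mM. All but 1 library at 10 mM, 51 of 52, lay below every library at 1 mM. Its log2 change was -1.08 ± 0.04, 2.11-fold lower (edgeR adjusted p = 1.53e-41). NLP5 went from 13.8, 19.5 and 32.6 CPM at 1 mM to 8.96, 12.5 and 15.7 CPM at 10 mM, and 43 of 52 libraries lay below every library at 1 mM. Its log2 change was -0.67 ± 0.04, 1.6-fold lower (edgeR adjusted p = 1.675e-30). The neighbour that overlaps NLP4, AT1G20650, moved in the opposite direction, from 5.62 to 6.52 CPM (log2 0.21 ± 0.05, adjusted p = 0.00025), and the one that overlaps NLP5, AT1G76360, was at 13 and 12.7 CPM and was not called.

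NLP8, known for promoting seed germination in response to nitrate, fell steeply, and its sister NLP9 was close to 0 at 10 mM. NLP8 spanned 9.20 to 35.7 CPM at 1 mM, with a median of 21.5, and 1.11 to 7.98 at 10 mM, with a median of 3.59. The groups do not overlap. The log2 change of NLP8 was -2.49 ± 0.10, 5.63-fold lower (edgeR adjusted p = 1.321e-40), and 220 genes had a lower value. NLP9 was the weakest member, with a lowest value of 0.131, a median of 0.891 and a highest value of 4.66 CPM at 1 mM. At 10 mM it had no count in 45 of 52 libraries and at most 0.294 CPM in the others, and 49 of 52 libraries lay below every library at 1 mM. In all, NLP9 had 459 counts at 1 mM and 10 at 10 mM, and its fall was thus favoured by the filter. Scaled to library size these totals differ 45.3-fold, with an exact 95% interval of 24.4 to 95.1 that covers counting error only. The fitted log2 change, -5.01, depends on the prior count that the fit adds and is given as a description, with no test.

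NLP3, the member without a sister, also fell far. It spanned 7.47 to 19.6 CPM at 1 mM, with a median of 11.4, and 0.167 to 2.14 at 10 mM, with a median of 0.886. Every library at 10 mM lay below every library at 1 mM. The log2 change was -3.70 ± 0.09, about 13-fold lower (edgeR adjusted p = 1.524e-57), and only 57 of the 19664 genes had a lower value. A fall of at least 8-fold was called in 1 of the 8 members, NLP3, and in 0.666% of all genes.

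The sisters' responses differed in the 3 pairs that could be compared. The change of the log2 ratio between sisters, 10 mM minus 1 mM, was averaged over the 13 lines, and concentration labels were permuted within lines in a two-sided test. Both counts of a ratio come from the same library. The share of all gene pairs that differ in this way was not counted, and 64.5% of all genes were called between concentrations. Labels were permuted without regard to the str numbers, of which only 3 of 13 hold both concentrations. NLP2 fell by 1.27 ± 0.03 (SE over lines) relative to NLP1, lower in 13 of 13 lines. NLP7 fell by 0.46 ± 0.04 relative to NLP6, in 13 of 13 lines. In the third pair NLP5 rose by 0.40 ± 0.05 relative to NLP4, in 12 of 13 lines. Each of these tests gave p = 1e-05 before and after Benjamini-Hochberg adjustment over 4 pairs, the smallest value that 100000 permutations can give. For NLP9 against NLP8 the ratio at 10 mM is set by the constant added to counts of 0, and it is not used.

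NLP7 fell by less than most members and NLP6 stayed near level, so the makeup of the family changed. The summed level of the 9 genes was 235 ± 29.4 CPM (SD, n = 52 libraries) at 1 mM and 138 ± 11.4 CPM at 10 mM, and all 52 libraries at 10 mM lay below all at 1 mM. NLP6 and NLP7 together made up 35.4% ± 2.96 of the family's counts at 1 mM and 53.4% ± 3.77 at 10 mM. The share of NLP2 went from 22.9% ± 2.66 to 13.7% ± 2.09. NLP8 held 8.76% at 1 mM and 2.68% at 10 mM, and NLP3 held 4.89% and 0.645%.

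**Figure D2:**
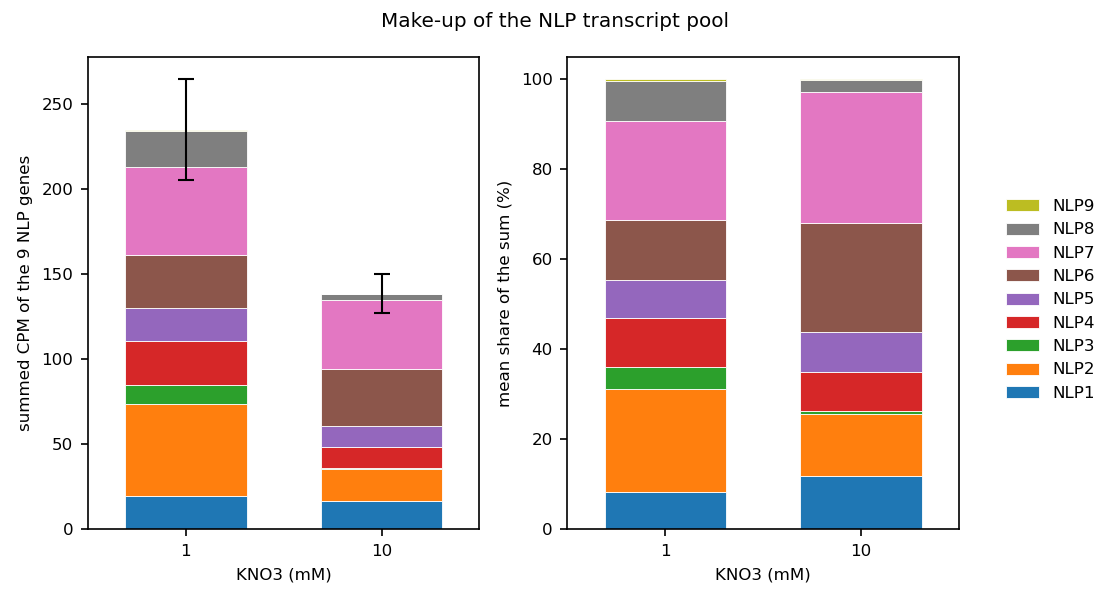
Makeup of the family's summed level in CPM, stacked by gene as means over 52 libraries per concentration (left, with the SD of the sum), and the mean share of each gene in percent (right). The total goes from 235 to 138 CPM, while NLP6 and NLP7 together go from 35.4% to 53.4% of it.

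To put the genes in order, their levels were divided by transcript length, as CPM per kb, which was not done for the shares above. As 3′ tag counts need not scale with length, this order is approximate. At 1 mM NLP7 was highest at 14.9 ± 2.1 CPM per kb (SD, n = 52), followed by NLP2 at 13.4 ± 2.73 and NLP6 at 10.7 ± 1.31. NLP7 and NLP2 differed by less than their spread. NLP4 (7.70 ± 1.18), NLP5 (6.48 ± 1.07) and NLP8 (5.63 ± 1.69) came next, and NLP5 and NLP8 differed by less than their spread. NLP3 (4.51 ± 0.862) and NLP1 (4.49 ± 0.645) could not be told apart, and NLP9 was lowest at 0.327 ± 0.229. At 10 mM the order was NLP7 at 11.6 ± 1.65, NLP6 at 11.5 ± 1.70, NLP2 at 4.71 ± 0.766, NLP5 at 4.05 ± 0.556, NLP1 at 3.80 ± 0.393 and NLP4 at 3.67 ± 0.654. NLP7 and NLP6 differed by less than their spread there, as did the other 4 from their neighbours. NLP8 (0.986 ± 0.401), NLP3 (0.351 ± 0.173) and NLP9 (0.00688 ± 0.0193) stood below them.

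Taken line by line and without NLP9, 5 genes were called lower in every line. NLP2, NLP3, NLP4, NLP5 and NLP8 were called lower in 13 of 13 lines, as were 3.8% of all genes tested. In each line all 4 replicates of these genes at 10 mM lay below all 4 at 1 mM. The share of all genes separated in this way was not counted. NLP7 was called lower in Col, GABI_699B09 and SALK_100002, and NLP1 in Col and GABI_699B09, though the mean of each was lower in 13 of 13 lines. NLP6 was called in 1 line, SAIL_1207_H04, where it was higher (log2 0.39 ± 0.14, edgeR adjusted p = 0.02938). Over all genes, 18% of the pairs of gene and line were called in either direction. The log2 change over lines ran from -1.86 to -1.24 for NLP2, from -4.10 to -2.98 for NLP3, from -1.38 to -0.77 for NLP4 and from -3.09 to -2.00 for NLP8. For NLP7 it ran from -0.74 to -0.11, and for NLP6 from -0.10 to 0.39. NLP9 had no count at 10 mM in 6 lines, where its level was at least 5.25-fold to at least 28.4-fold lower against a limit of 3 counts over the 4 replicates.

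**Figure D3:**
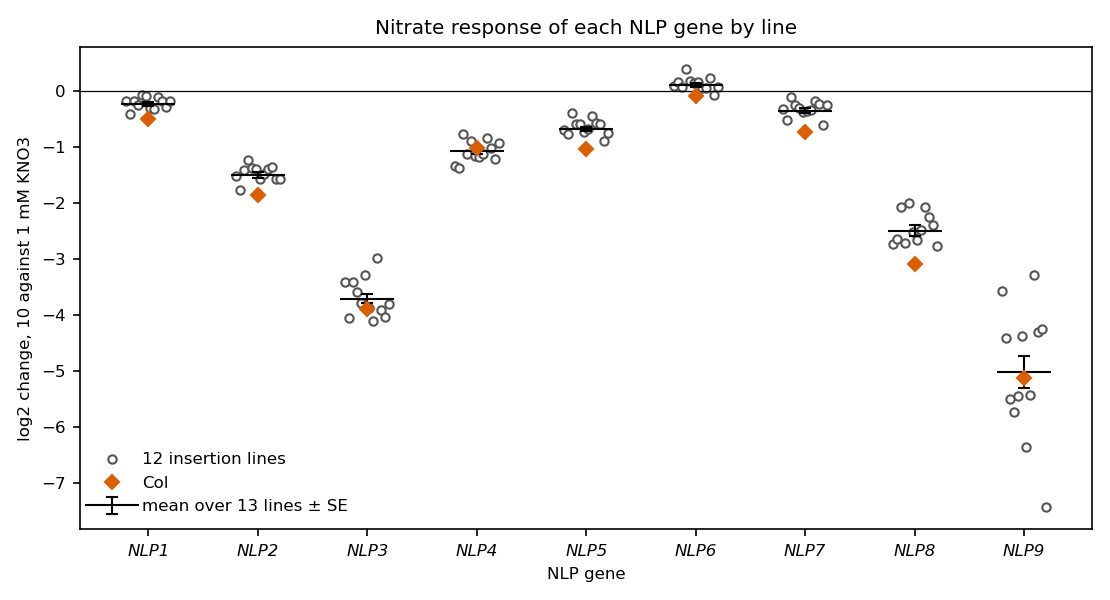
Log2 change from 1 mM to 10 mM KNO3 of each NLP gene in each of the 13 lines, from the edgeR fit: open circles are the 12 insertion lines, the diamond is Col, and the bar is the mean over lines ± SE. NLP3, NLP8 and NLP9 lie lowest in every line, NLP6 lies around 0, and Col is the lowest line for NLP1, NLP2, NLP5, NLP6, NLP7 and NLP8.

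In wild type Col alone 7 of the 8 members other than NLP9 were called lower at 10 mM, where 24.3% of all genes were called and 12.6% were lower. The median log2 change of these 8 was -1.03, and that of all genes was 0.02. The log2 changes were -1.86 for NLP2 (edgeR adjusted p = 4.622e-15), -3.09 for NLP8 (6.608e-12), -1.04 for NLP5 (2.623e-10), -0.74 for NLP7 (2.562e-05) and -0.51 for NLP1 (0.001848). NLP6 gave -0.10 and did not pass (adjusted p = 0.6601). With run 1 alone the calls of NLP1 (adjusted p = 0.1219) and NLP7 (0.0608) were lost.

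The level at each concentration also varied between lines. Group means of NLP2 at 1 mM ran from 43.2 CPM in SALK_085964C to 69.5 in Col, and at 10 mM from 16.2 in GABI_699B09 to 21.0 in SAIL_1207_H04. For NLP7 the means ran from 47.0 to 63.0 CPM at 1 mM and from 35.2 to 44.3 at 10 mM. NLP6 ran from 28.3 to 35.4 CPM and from 30.4 to 38.8. NLP1 ran from 17.1 to 21.8 CPM and from 14.3 to 17.6. NLP3 ran from 10.4 to 13.7 CPM at 1 mM and from 0.667 to 1.32 at 10 mM, and NLP8 from 16.1 to 29.8 and from 2.96 to 4.16. In most of these orders neighbouring lines differed by less than the SD of their 4 replicates.

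Against Col, over both concentrations, 2 members differed between lines by a joint edgeR test of all 12 insertion lines, NLP4 (adjusted p = 0.005905) and NLP5 (0.007227), where 10.8% of all genes did. Leaving out any 1 replicate number left 0 or 1 of them, with 0 without replicate 3, and 0 remained without the line GABI_699B09. Of 108 single comparisons of a gene in a line against Col, 2 were called, both in GABI_699B09, beside 1.33% of all such comparisons over all genes. Under some alternatives NLP2 was also called lower in SALK_085964C and in SALK_012253. Every comparison shares the same Col libraries.

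NLP4 was low in GABI_699B09 at both concentrations. Its 4 replicates at 1 mM were at 23.3, 20.6, 21.3 and 20.2 CPM, and those of Col at 29.0, 19.8, 31.1 and 28.5 CPM. At 10 mM they were at 9.24, 7.89, 7.20 and 8.51 CPM, and those of Col at 12.7, 12.2, 12.9 and 15.6 CPM. At 10 mM all 4 lay below all 48 libraries of the other lines (12.6 ± 1.90 CPM, SD), and the share of all genes so separated was not counted. At 1 mM 36 of the 48 lay above all 4 and 5 lay below all 4. The log2 difference from Col was -0.52 ± 0.10 (edgeR adjusted p = 9.015e-05). It was -0.84 (adjusted p = 4.712e-06) from run 1 alone and -0.34 ± 0.14 (0.1681) from run 2 alone. The neighbour that overlaps NLP4, AT1G20650, was also lower in this line (-0.39 ± 0.13, adjusted p = 0.0309), and without strand the counts of both genes cannot be told apart.

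The sister NLP5 was low in the same line. At 1 mM its replicates were at 13.8, 14.6, 17.8 and 18.9 CPM in GABI_699B09 and at 21.0, 22.0, 32.6 and 23.6 CPM in Col. At 10 mM they were at 9.39, 9.12, 8.96 and 10.7 CPM in GABI_699B09 and at 11.7, 13.7, 11.3 and 11.2 CPM in Col. The replicates do not overlap those of Col at either concentration, and the share of all genes for which this holds was not counted. Of the 48 libraries of the other lines, 30 at 1 mM and 43 at 10 mM lay above all 4. The log2 difference was -0.47 ± 0.09 (edgeR adjusted p = 6.887e-05), with -0.33 ± 0.14 (0.1482) from run 1 alone and -0.56 (0.0001727) from run 2 alone. Its neighbour AT1G76360 gave -0.26 ± 0.12 and did not pass (adjusted p = 0.1467).

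**Figure D4:**
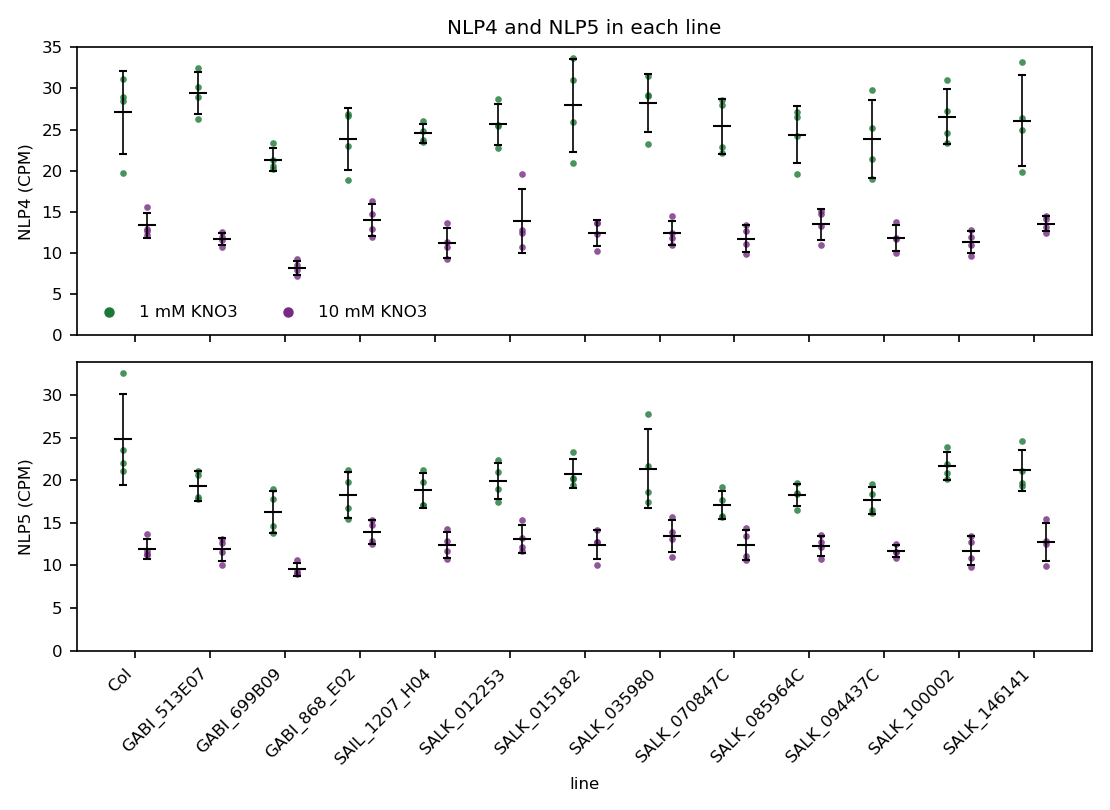
Level of NLP4 and NLP5 in CPM in each of the 13 lines, with 1 point per replicate (4 per line and concentration), bars for the mean ± SD, and colour for 1 mM or 10 mM KNO3. GABI_699B09 has the lowest mean of the lines at each concentration, 21.4 and 8.21 CPM for NLP4 and 16.3 and 9.54 CPM for NLP5.

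Most members lay below Col in most lines, and all 9 did in 8 of the other 11 lines. For NLP9 this rests on few counts at 10 mM. Every line was set against the same Col libraries, so the lines do not count as independent repeats. Of all genes, 48.8% to 50.3% lay above Col in each line. In GABI_699B09 8 of 9 members lay below Col, with a median log2 difference of -0.19 against -0.01 for all genes. Medians were lower in SALK_070847C (-0.23) and SALK_094437C (-0.22). In GABI_699B09 11.6% of all genes were called in this line, 7.06% lower. Some markers differed in it too. The photosynthetic markers summed to 16.2 ± 3.14 CPM (SD, n = 4) against 27.4 ± 1.72 in Col at 1 mM, and to 52.2 ± 18.3 against 62.5 ± 18.6 at 10 mM. Of these 8 markers 2 were called lower, LHCA1 (-0.91) and LHCA3 (-1.24). The others were not called, and RBCS3B (0.88) and LHCB1.3 (0.52) lay above Col. These genes were named after their values were seen. None of the 9 root markers was called. The seed markers summed to at most 3.04 CPM in this line and to 0 in Col. Only OLEO1, an oil body protein gene, passed the filter, with 90 counts in 13 libraries and none in Col. Its call as higher was thus favoured by the filter and is not used. The markers' part in the NLP4 and NLP5 results was not tested.

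Col had the highest mean of the 13 lines at 1 mM for 7 of 9 members, and at 10 mM for 0 of 9. A contrast of Col with the mean of the 12 insertion lines was added after these levels were seen. At 1 mM 9 of 9 members were above 0, with a median log2 difference of 0.31 beside 0.01 for all genes. Of these, 2 were called, NLP5 (0.37 ± 0.09, edgeR adjusted p = 0.01544) and NLP2 (0.41 ± 0.12, 0.04739), where 1.62% of all genes were. NLP8 (0.58 ± 0.20, adjusted p = 0.129) and NLP7 (0.31 ± 0.10, 0.09182) did not pass. Replicate 3 of Col at 1 mM was the highest of its group in each of these 4 genes. For NLP2 the Col replicates were at 45.4, 71.0, 85.2 and 76.3 CPM, beside 52.7 ± 9.46 CPM (SD) and a highest value of 75.9 in the other 48 libraries. Without replicate 3, without replicate 2 or from run 1 alone, 0 members were called. At 10 mM 0 were called, with 0.102% of all genes, and 4 of 9 lay above 0, among them NLP9 with 10 counts over all libraries.

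**Figure D5:**
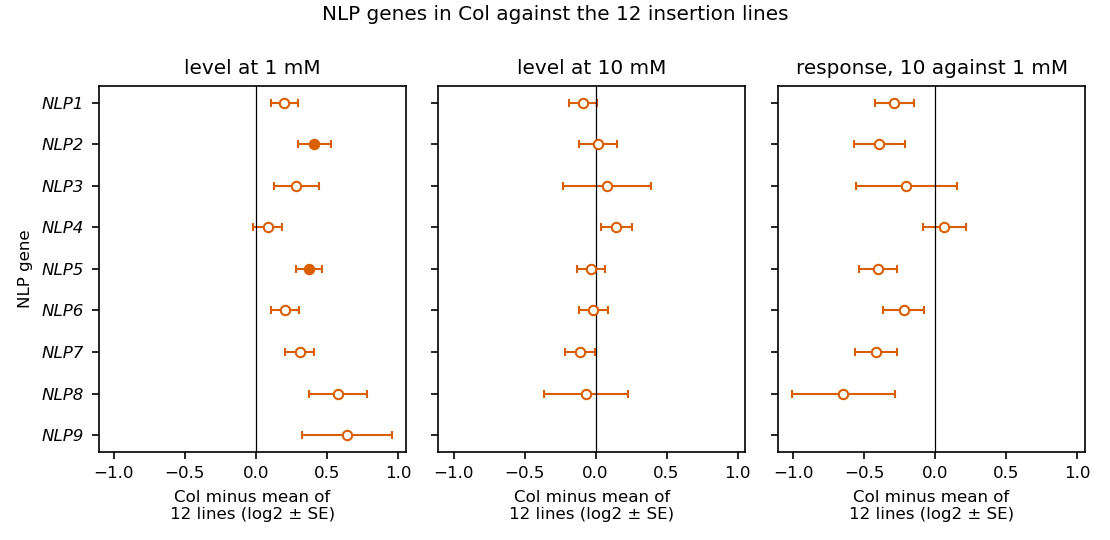
Log2 difference between Col and the mean of the 12 insertion lines for each NLP gene, with SE bars, for the level at 1 mM, the level at 10 mM and the nitrate response; NLP9, with 10 counts at 10 mM, is drawn in the first panel alone. Filled points, NLP2 (0.41) and NLP5 (0.37) at 1 mM, passed the adjusted threshold of 0.05, and all 9 points lie above 0 at 1 mM.

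No difference between lines in the nitrate response was called for any member. The joint test of 12 interactions called 0 of 9, with 0.0102% of all genes, and NLP5 had the lowest unadjusted p of 0.07121. Of 108 single interactions with Col 0 were called by edgeR, beside 5 over all genes (0.00212%), and 24 had an unadjusted p under 0.05. These 24 share the Col libraries, and the share of all genes at that unadjusted threshold was not counted. The response of Col against the mean of the other lines had a median of -0.29 over the members, and 0 were called, beside 0.00509% of all genes. A p that misses the threshold does not show that the lines respond alike.

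Genes whose levels ran most like each member were listed by Pearson correlation of log2 group means over the 26 groups of line and concentration, among 14821 or 14822 other genes with a mean of at least 5 CPM. These groups share libraries and the concentration contrast, which alone gives high values. NLP3 was most like UMAMIT36 (r = 0.992), an amino acid transporter family gene that went from 47.5 to 1.76 CPM, and NRT2.4 (0.991), a high-affinity nitrate transporter of nitrogen-starved roots, which went from 12.4 to 0.408 CPM. NLP4 was most like AT1G13510 (0.979) and the urea transporter DUR3 (0.976), which went from 123 to 30.4 CPM. NLP2 was most like AILP1 (0.990) and the alternative oxidase AOX1A (0.988), and NLP8 like ERF5 (0.994) and GSTU22 (0.993). NLP5 was most like the plastid ATP importer NTT1 (0.974) and its own sister NLP4 (0.965). NLP1 was most like the ammonium transporter AMT1;3 (0.883) and NLP7 (0.871), and NLP9 like ABCG20 (0.967) and AT1G14340 (0.966). NLP7 with NSL1 (0.937) and PAO4 (0.936), and NLP6 with AT1G01800 (0.808) and the abscisic acid receptor PYL4 (0.803), had looser likenesses.

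Genes that NLP factors are known to control moved in both directions. Of 22 tested, 13 were higher and 9 lower at 10 mM over all lines by the edgeR test, with a median log2 change of 0.48, and the background is again 64.5% of all genes called. BT2, a BTB-TAZ protein known to restrain nitrate uptake, went from 9.26 to 185 CPM (log2 4.33 ± 0.07, adjusted p = 2.939e-70). Its relative BT1 went from 18.8 to 146 CPM (2.98 ± 0.08, 9.101e-54). LBD39, a repressor of nitrate-responsive genes, went from 15.8 to 73.5 CPM (2.23 ± 0.06, 2.31e-52). NRT2.2, a high-affinity nitrate transporter, went from 18.7 to 0.681 CPM (-4.80 ± 0.11, 8.51e-59). In GABI_699B09, of the same 22 genes, CYP735A2, G6PD3, HHO3 and LBD38 were called higher than in Col and BT2 lower (-0.77, adjusted p = 0.0005212), named after their values were seen.

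Kinases and partners of NLP proteins changed less. Of 10 tested, 3 were higher, 4 were lower and 3 did not pass, a share near the 64.5% of all genes called, with a median of -0.04. NRG2, a nitrate regulator that binds NLP7, was higher (log2 0.58 ± 0.09, edgeR adjusted p = 8.458e-08), as was the nitrate transporter and sensor NRT1.1 (0.39 ± 0.05, 3.175e-12). CPK10, a calcium-dependent kinase that phosphorylates NLP7, was lower (-0.55 ± 0.04, 1.29e-23), as was CIPK23, which phosphorylates NRT1.1 (-0.29 ± 0.04, 5.11e-09). The 5 RKD genes, which share the RWP-RK domain but lack the NLP amino end, were under the filter in all lines, and their summed level was at most 0.665 CPM.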

How the data were processed

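RNA was measured as 3′ tag counts per locus in root libraries (52 at each concentration), each sequenced in 2 runs. The deposited counts are whole numbers for 33602 loci. Bowtie, HTSeq, SAMtools, limma, FastQC and the build TAIR10 are named in the submitters' processing notes; their roles, settings and strand handling are not given in the sources used here. The 2 runs of a library were summed. The 279 organelle loci, at 0 in run 2, were left out, which left 33323 nuclear loci. The deposited counts were fitted with edgeR 4.0.16 (R 4.3.3; filterByExpr with minimum count 10; TMM; 1 coefficient for each of 26 groups; glmQLFit and glmQLFTest), with Benjamini-Hochberg adjustment over 19664 genes and a threshold of 0.05. SEs were derived from the fitted change and its F statistic. CPM are counts scaled to the TMM-normalised library size. The fit was tested on simulated data.

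The members and lists were chosen with earlier results of these data known. All NLP genes are named; of each other list, at most the 4 with the largest change among those called, and per member the 2 most alike genes. Genes of a list in GABI_699B09 are named outside this rule, as the text says there. Replicates are labelled as separate samples, nothing says whether from separate sowings, and p-values measure the spread between them. Replicates differed by more than sampling noise (lowest chi-square per degree of freedom 4.48 over 156 pairs). Intervals cover counting error only. limma-voom 3.58.1, DESeq2 1.42.0, DESeq2 size factors, no filter, each run, each replicate left out, the str number, the exchanged pair and a replicate block were tried as alternatives. Promoters, gene models and protein identities (mafft 7.526) come from the TAIR10.1 reference.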

Additional observations from a re-analysis of the deposited data

Results flagged for a closer look

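Among 234 groups of 4 replicates (9 genes in 26 groups), 18 held 1 replicate far apart from the other 3 by Dixon's ratio, and chance alone gives about 1 in 20. The share among the genes other than NLP9 was below that rate. NLP9 accounts for 10 of the 18. In 7 of these, at 10 mM, 3 replicates were at 0, so the ratio is 1 by construction for any replicate with a count, as in Col (0.0957 CPM), GABI_513E07 (0.213), GABI_699B09 (0.294), SALK_015182 (0.129), SALK_085964C (0.168), SALK_094437C (0.125) and SALK_100002 (0.0922). At 1 mM, NLP9 had a replicate apart at 1.02 CPM in GABI_868_E02 and at 1.40 CPM in SALK_085964C. In SALK_146141 at 1 mM 1 replicate of NLP9 was at 4.66 CPM and the others at 1.83, 1.98 and 1.43 CPM, and this line had the highest NLP9 mean, 2.47 ± 1.47 CPM (SD, n = 4). NLP7 had a replicate apart in 5 groups, at 61.4 CPM in SALK_070847C, 39.0 in SALK_085964C and 49.6 in SALK_100002 at 1 mM, and at 51.2 in GABI_868_E02 and 30.9 in SALK_094437C at 10 mM. The others, all at 1 mM, were NLP1 at 24.5 CPM in SALK_100002, NLP2 at 49.9 CPM in SALK_146141 and NLP6 at 22.8 CPM in SALK_035980.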

How the results depend on the processing

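The falls of NLP2, NLP3, NLP4, NLP5, NLP7 and NLP8 over all lines kept their direction and call under all 16 alternatives, with log2 ranges of -1.61 to -1.43, -3.90 to -3.50, -1.16 to -1.02, -0.74 to -0.64, -0.41 to -0.32 and -2.73 to -2.20. NLP9 kept its direction in the 15 that could test it; with run 2 alone it was under the filter. Within the str numbers that hold both concentrations NLP1 and NLP6 were not called, and NLP9 is left out. In all genes 6955 were called there and 7563 with str number as a covariate, against 12675. In Col, NLP6 turned to 0.086 with run 1 alone and 0.079 with str number as a covariate. For the joint line test, 1 member was called in either run alone, 0 to 1 with a replicate left out, and 0 without GABI_699B09. Single comparisons with Col called 5 with str number as a covariate, 4 with a replicate block within concentration and 0 without GABI_699B09. With that covariate and with that block, NLP2 was called lower in SALK_085964C and SALK_012253. NLP2 was also called lower in SALK_085964C with DESeq2, without replicate 1 and with edgeR adjusted over the 12 lines together (-0.45, adjusted p = 0.04299). In SALK_012253 it was also called lower with run 1 alone. Col against the 12 lines at 1 mM called 1 with limma-voom, with the exchanged pair left out, with run 2 alone or without GABI_699B09, 0 with run 1 alone, and 0 to 2 with a replicate left out. With a replicate block that count was 3, and over all lines each member other than NLP9, which is left out, was called. The NLP4 and NLP5 differences in GABI_699B09 each kept their call under 16 of 17 alternatives. Same-numbered replicates correlated above 0.1 in 4 of 52 pairs between concentrations (median -0.028) and in 60 of 96 between lines (median 0.146, against -0.059 for other numbers), a hint from the data that is not in the design, and the numbers were not taken as pairs. Depth limits NLP9 at 10 mM, where 10 counts remain. The causes of these differences were not tested.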
